A study of Mus musculus with 1152 samples.

Results

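Laminins are the proteins on which a basement membrane is built, and this report describes the genes of 8 of their chains, Lama1, Lama2, Lama4, Lama5, Lamb1, Lamb2, Lamc1 and Lamc3, in single brain cells of adult mice. The genes were chosen by name from the 46517 genes of the deposited count table, by a rule that uses no measured value. Earlier results of these data were known when they were chosen, so the choice was not blind to them. They were read as CPM, counts per 1000000 reads of a well, in the 857 of 1152 wells that held at least 50000 reads. Wells were sorted into classes by marker genes, none of them a laminin or another basement membrane gene. The question was which laminin trimers the RNA of each class could supply.

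A laminin is a trimer of an α, a β and a γ chain that are joined inside the cell, so a cell needs a gene of each kind to secrete a trimer. Outside the cell the trimers form a sheet that is tied to collagen IV through nidogens and held at the cell surface by integrins and by dystroglycan, whose sugar chain matriglycan binds laminin. In the brain, basement membranes surround vessels and cover the surface under the meninges, and their chains come from endothelial cells, mural cells (pericytes and smooth muscle), fibroblasts and astrocytes.

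RNA was measured with SMART-seq2, a plate method that copies full-length RNA of a single cell per well. The mice were adult C57BL/6 animals of both sexes from a pair of lines, Pdgfra-H2BGFP, which carries a nuclear green fluorescent protein at a receptor gene of fibroblasts and oligodendrocyte precursors, and Tagl-CREERT2;Ai14, in which Cre recombinase, active after tamoxifen, turns on a red fluorescent reporter. Vascular fragments were pulled from digested brain with beads against CD31, an endothelial surface protein, digested further, and fluorescent cells were sorted. The labels tie no well to a line, animal or plate, so all wells are 1 sample, every value is a description without a replicate check, and no test was made.

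A well joined a class when at least 3 of 6 markers reached 200 CPM and no marker list of another class did, except that mural wells could also pass the endothelial list. This gave 78 fibroblast wells, 17 mural wells, 36 endothelial wells and 607 wells of the oligodendrocyte lineage, the cells that make myelin and their precursors. The lineage held 236 precursor wells (OPC), 90 wells of committed precursors (COP) and 281 mature oligodendrocyte wells. Another 43 wells passed lists of several classes and 76 passed none. Median reads were 288060 in fibroblast, 435647 in mural, 274835 in endothelial and 316010 in lineage wells. The well names fall into 3 sets, and fibroblast wells came 15, 23 and 40 from sets 600s_182s, 613s and 1025s_182s, against 318, 181 and 108 of the lineage wells. Of the mural wells 0, 9 and 8 came from these sets, and of the endothelial wells 3, 14 and 19.

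The marker lists set limits on the vascular classes. Of the 17 mural wells 13 also passed the endothelial list, and its 6 genes summed to 8083.0 CPM over mural wells and 9786.7 CPM over endothelial wells (112.4 to 11567.2 and 3413.5 to 19673.3 CPM in single wells), so the RNA of these mural wells cannot be told apart from that of attached endothelial cells. Microglia genes passed in 8 of 17 mural and 17 of 36 endothelial wells, with sums of 2462.8 and 3308.9 CPM (49.0 to 9364.8 and 0 to 14868.3 CPM in single wells). Their part in the laminin values was not tested beyond leaving these wells out, after which Lama4 was no longer counted as lower in mural than in endothelial wells, at −0.28 on the log2 scale. Fibroblast wells had all 6 fibroblast markers at 10 CPM or more and a sum of 9461.0 CPM, against 74.43 CPM over lineage wells. The same markers summed to 462.7 CPM over endothelial wells (0 to 4615.5 CPM in single wells) and 208.4 CPM over mural wells (6.256 to 1764.3). Their part in the laminin values of these wells was not tested.

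In the GENCODE vM21 annotation of GRCm38 all 8 are protein-coding genes. Lama1 lies at chr17:67697259-67822647, Lama2 at chr10:26980036-27619758, Lama4 at chr10:38965515-39110188 and Lama5 at chr2:180176373-180225859. Lamb1 lies at chr12:31265234-31329644, Lamb2 at chr9:108479736-108490530, Lamc1 at chr1:153218922-153332786 and Lamc3 at chr2:31887291-31946539. Lama2, Lama5 and Lamc1 are on the minus strand. Lama2, Lama5, Lamc1 and Lamc3 overlap small annotated genes, and reads of these neighbours can be shared with them, since no source used here gives the strand setting of the counting.

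RefSeq promoters, from 250 bases before to 50 bases after the start of the gene in build GRCm38.p6, were available for 4 of the 8 genes. All 4 are shown. They belong to the α and β chain genes that lead in most fibroblast wells (Lama2 and Lamb1) and most mural wells (Lama5 and Lamb2). The windows are chr10:27616893-27617192 on the minus strand for Lama2, chr12:31265043-31265342 on the plus strand for Lamb1, chr2:180225810-180226109 on the minus strand for Lama5 and chr9:108479612-108479911 on the plus strand for Lamb2. The RefSeq start of Lama2 lies inside the GENCODE span given above, so its window is within the gene as annotated there. Those of Lamb1 and Lamb2 also lie inside their GENCODE spans, so their windows hold more than 50 bases of the annotated gene. Each is printed 5′ to 3′ along its gene, with GC boxes (GGGCGG on either strand) in capitals.
Lama2: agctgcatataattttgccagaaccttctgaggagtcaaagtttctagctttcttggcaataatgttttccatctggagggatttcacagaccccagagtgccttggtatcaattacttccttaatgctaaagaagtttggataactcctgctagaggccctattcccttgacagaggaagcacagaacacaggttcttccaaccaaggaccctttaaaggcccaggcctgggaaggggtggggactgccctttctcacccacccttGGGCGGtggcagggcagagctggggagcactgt
Lamb1: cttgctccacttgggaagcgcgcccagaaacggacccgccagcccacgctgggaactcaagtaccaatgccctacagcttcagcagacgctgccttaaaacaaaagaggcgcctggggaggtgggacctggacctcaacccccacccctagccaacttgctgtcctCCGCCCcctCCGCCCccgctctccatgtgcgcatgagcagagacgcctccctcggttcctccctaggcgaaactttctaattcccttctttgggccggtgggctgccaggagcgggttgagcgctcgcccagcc
Lama5: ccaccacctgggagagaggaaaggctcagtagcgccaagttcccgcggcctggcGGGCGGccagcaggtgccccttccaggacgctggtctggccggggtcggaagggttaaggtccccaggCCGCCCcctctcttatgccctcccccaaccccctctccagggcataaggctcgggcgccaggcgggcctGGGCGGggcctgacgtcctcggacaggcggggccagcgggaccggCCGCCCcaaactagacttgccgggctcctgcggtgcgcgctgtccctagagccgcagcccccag
Lamb2: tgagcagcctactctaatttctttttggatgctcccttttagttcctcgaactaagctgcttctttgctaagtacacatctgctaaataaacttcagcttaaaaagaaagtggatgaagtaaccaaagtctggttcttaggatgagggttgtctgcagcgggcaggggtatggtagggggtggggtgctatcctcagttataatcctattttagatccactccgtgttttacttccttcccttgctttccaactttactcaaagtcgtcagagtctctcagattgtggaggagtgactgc
Lama5 held 4 GC boxes, Lamb1 2, Lama2 1 and Lamb2 0, and 35.66% of 32851 RefSeq promoters of this length held at least 1. The GC content was 50.33% for Lama2, 63.67% for Lamb1, 72.67% for Lama5 and 44.0% for Lamb2. A TATA box (TATAAA) was in none of the 4 windows on either strand, and in 13.62% of all promoters. An AP-1 site (TGANTCA) was likewise in none of them, and in 7.808% of all promoters. The same held for an ETS site (CCGGAAG), found in 8.858% of all promoters. None of these motifs is contained in another. A match is a description of letters only.

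Fibroblast wells held the most laminin RNA. The 8 genes summed to 2964.5 CPM over fibroblast wells (95% Poisson interval 2943.2 to 2986.0), 635.4 CPM over mural wells (616.9 to 654.3), 680.1 CPM over endothelial wells (665.8 to 694.6) and 71.94 CPM over lineage wells (70.82 to 73.07). Single fibroblast wells ran from 264.7 to 13547.8 CPM with a median of 2613.3, mural wells from 32.63 to 1687.6 with a median of 619.9, endothelial wells from 0 to 2535.8 with a median of 517.6, and lineage wells from 0 to 2121.5 with a median of 17.3. The classes overlap in single wells, and the lowest fibroblast wells lie under the highest wells of each other class. Intervals cover counting error only, since PCR copies of a molecule were counted as reads of their own.

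**Figure D1:**
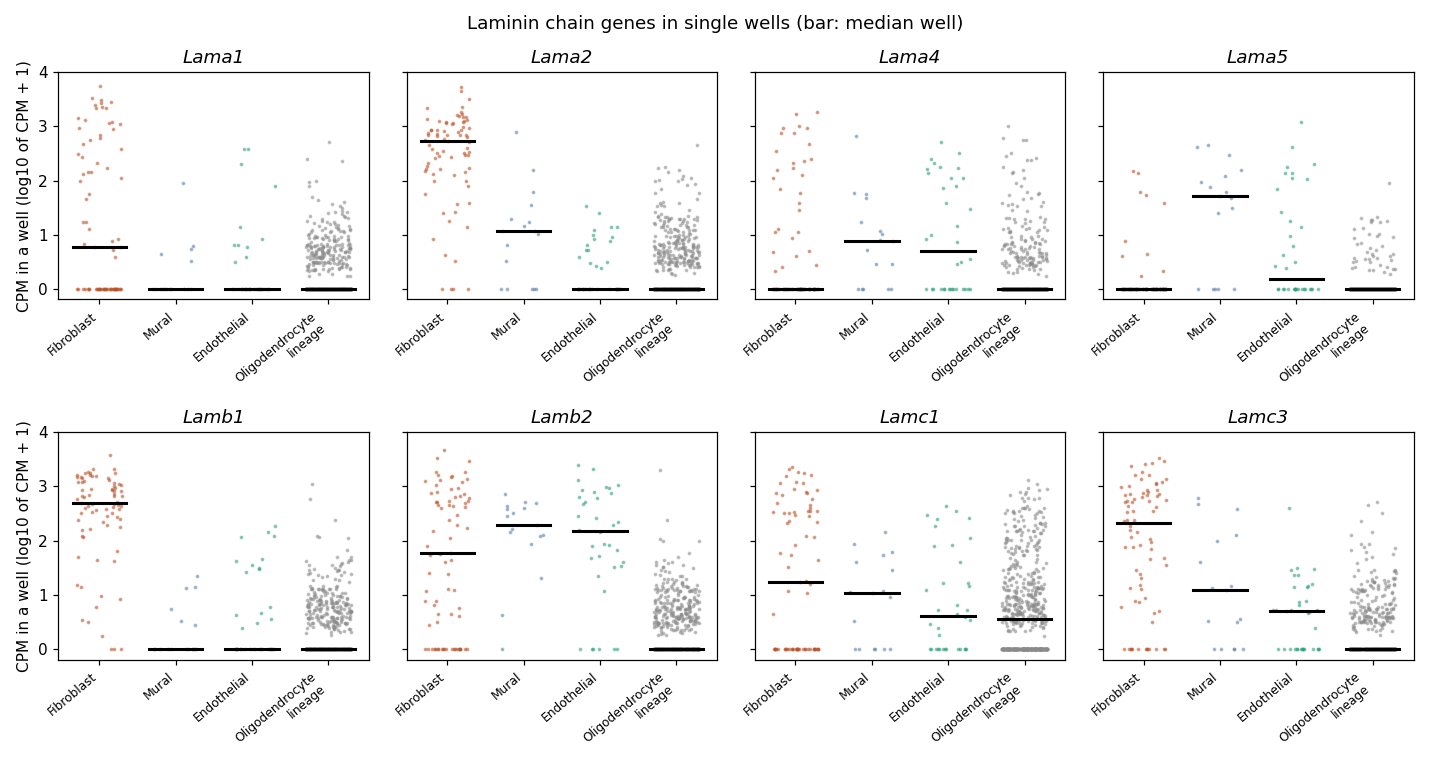
CPM of each laminin chain gene in single wells, as log10 of CPM + 1 on the vertical axis, for 78 fibroblast, 17 mural, 36 endothelial and 607 oligodendrocyte lineage wells; each point is a well and the bar is the median well. Fibroblast wells stand highest for Lama2 and Lamb1 with medians of 524.2 and 489.3 CPM, and mural wells for Lama5 with a median of 51.84 CPM.

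Among the α chain genes, Lama2 marked fibroblast wells. It codes for the chain whose loss causes a congenital muscular dystrophy in mice and humans. Lama2 ran from 0 to 5339.8 CPM with a median of 524.2 in fibroblast wells, from 0 to 789.0 with a median of 10.73 in mural wells, from 0 to 32.79 with a median of 0 in endothelial wells, and from 0 to 458.7 with a median of 0 in lineage wells. It reached 10 CPM in 71 of 78 fibroblast wells, 9 of 17 mural wells, 5 of 36 endothelial wells and 71 of 607 lineage wells. Over summed counts its level was 611.6 CPM in fibroblast wells (601.9 to 621.4), 29.57 in mural wells (25.69 to 33.87), 4.722 in endothelial wells (3.603 to 6.078) and 4.579 in lineage wells (4.3 to 4.871). Without the top well of each class Lama2 was at 19.59 CPM in mural and 3.082 CPM in endothelial wells. Fibroblast values in the 3 sets, 529.2 to 949.6 CPM, lay apart from those of every other class, and mural values of 33.28 and 25.32 CPM lay apart from endothelial values of 6.111 and 3.469 CPM. Endothelial and lineage values overlapped, as lineage sets ran from 1.618 to 13.93 CPM.

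Lama1, the α chain of early embryonic basement membranes and of the pial surface, was found in a part of the fibroblast wells. It ran from 0 to 5485.0 CPM with a median of 4.939 in fibroblast wells and was at 0 in 36 of the 78. Its highest mural well had 87.67 CPM, its highest endothelial well 373.8 CPM and its highest lineage well 520.7 CPM, with medians of 0 in all 3 classes. Over summed counts Lama1 had 374.7 CPM in fibroblast wells (367.2 to 382.4), 2.132 in mural wells (1.193 to 3.517), 16.84 in endothelial wells (14.66 to 19.26) and 3.351 in lineage wells (3.113 to 3.602). A single well carried 67.76% of the endothelial reads, and without it endothelial wells had 5.601 CPM. Within sets fibroblast wells had 1194.8, 236.7 and 308.1 CPM, endothelial wells 5.954 and 6.326 CPM in sets 613s and 1025s_182s, and lineage wells 0.4346 to 5.128 CPM.

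Lama4, an α chain of vascular basement membranes, was about level between fibroblast and endothelial wells when summed. It ran from 0 to 1814.3 CPM with a median of 0 in fibroblast wells, from 0 to 668.3 with a median of 6.731 in mural wells, from 0 to 513.7 with a median of 4.519 in endothelial wells, and from 0 to 1004.4 with a median of 0 in lineage wells. Summed levels were 80.02 CPM (76.56 to 83.61) in fibroblast, 33.26 (29.14 to 37.81) in mural, 80.98 (76.11 to 86.08) in endothelial and 7.259 (6.906 to 7.624) in lineage wells. A single well held 45.73% of the mural reads, and mural wells had 18.47 CPM without it. The share of wells did not follow this level, as 23 of 78 fibroblast wells and 15 of 36 endothelial wells reached 10 CPM. Sets overlapped too, with 339.5, 31.66 and 62.36 CPM in fibroblast wells, 55.11 and 8.236 CPM in mural wells and 79.6 and 79.99 CPM in endothelial wells.

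Lama5, the α chain of many mature vascular and epithelial basement membranes, was the α chain gene of mural wells. It ran from 0 to 147.4 CPM with a median of 0 in fibroblast wells, from 0 to 445.6 with a median of 51.84 in mural wells, from 0 to 1214.0 with a median of 0.7127 in endothelial wells, and from 0 to 91.02 with a median of 0 in lineage wells. It reached 10 CPM in 5 of 78 fibroblast wells, 12 of 17 mural wells, 12 of 36 endothelial wells and 10 of 607 lineage wells. Summed levels were 5.922 CPM (5.006 to 6.956) in fibroblast, 157.4 (148.2 to 166.9) in mural, 74.45 (69.78 to 79.35) in endothelial and 0.4337 (0.3509 to 0.5302) in lineage wells. The top well held 46.52% of the mural reads and 38.9% of the endothelial reads, and without it the levels were 100.7 and 46.6 CPM. Mural sets had 206.6 and 101.0 CPM and endothelial sets 107.8 and 52.24 CPM, so these neighbours overlapped between sets, while fibroblast and lineage sets stayed at or under 7.049 CPM.

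The β chain genes divided the classes. Lamb1, the β chain that is most widely used in the embryo, ran from 0 to 3784.1 CPM with a median of 489.3 in fibroblast wells, from 0 to 21.75 with a median of 0 in mural wells, from 0 to 183.4 with a median of 0 in endothelial wells, and from 0 to 1089.6 with a median of 0 in lineage wells. Summed levels were 668.5 CPM (658.4 to 678.7) in fibroblast, 1.848 (0.984 to 3.16) in mural, 26.99 (24.21 to 30.01) in endothelial and 2.903 (2.682 to 3.138) in lineage wells. It reached 10 CPM in 69 of 78 fibroblast wells, 3 of 17 mural wells and 10 of 36 endothelial wells. Fibroblast sets (615.2 to 973.1 CPM) and endothelial sets (32.59 and 26.94 CPM) stood apart from each other and from mural and lineage sets, which overlapped at 1.83 to 1.864 and 0.8691 to 6.875 CPM.

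Lamb2, a β chain of mature vessels, kidney glomeruli and nerve-muscle synapses, was shared by the fibroblast and vascular classes. It ran from 0 to 4705.1 CPM with a median of 57.46 in fibroblast wells, from 0 to 725.2 with a median of 192.0 in mural wells, from 0 to 2445.8 with a median of 150.7 in endothelial wells, and from 0 to 2000.7 with a median of 0 in lineage wells. Summed levels were 396.3 CPM (388.5 to 404.2) in fibroblast, 292.8 (280.3 to 305.8) in mural, 386.5 (375.7 to 397.4) in endothelial and 3.894 (3.637 to 4.164) in lineage wells. It was more widely spread over the vascular wells, reaching 10 CPM in 15 of 17 mural and 30 of 36 endothelial wells, against 48 of 78 fibroblast wells. Fibroblast sets ran from 295.6 to 719.6 CPM, mural sets had 335.2 and 244.3 CPM and endothelial sets 341.4 and 340.0 CPM, so the order of these 3 classes was within the spread between sets.

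Of the γ chain genes, Lamc1 is the partner in most known trimers. It ran from 0 to 2318.0 CPM with a median of 16.69 in fibroblast wells, from 0 to 143.2 with a median of 9.801 in mural wells, from 0 to 440.4 with a median of 3.179 in endothelial wells, and from 0 to 1309.0 with a median of 2.625 in lineage wells. Summed levels were 271.1 CPM (264.7 to 277.6) in fibroblast, 27.58 (23.83 to 31.74) in mural, 79.17 (74.35 to 84.22) in endothelial and 46.71 (45.81 to 47.63) in lineage wells. Without the well with most of its reads, Lamc1 was at 18.14 CPM in mural and 49.1 CPM in endothelial wells. Among the 8 genes it was the only one that reached 10 CPM over the summed lineage wells. Fibroblast sets had 1029.2, 245.0 and 135.2 CPM, mural sets 18.37 and 38.13, endothelial sets 91.66 and 83.87, and lineage sets 67.81, 25.71 and 18.23, so mural and lineage sets overlapped.

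Lamc3, whose human counterpart is mutated in malformations of the occipital cortex, was high in fibroblast wells. It ran from 0 to 3299.6 CPM with a median of 208.2 in fibroblast wells, from 0 to 602.7 with a median of 11.31 in mural wells, from 0 to 401.7 with a median of 4.018 in endothelial wells, and from 0 to 520.0 with a median of 0 in lineage wells. Summed levels were 556.4 CPM (547.2 to 565.8) in fibroblast, 90.84 (83.93 to 98.16) in mural, 10.47 (8.764 to 12.4) in endothelial and 2.808 (2.59 to 3.039) in lineage wells. The sets kept this order without overlap, with 507.5 to 622.9 CPM in fibroblast, 97.17 and 83.58 in mural, 9.401 and 10.2 in endothelial and 0.7916 to 7.66 in lineage wells. Without the mural well that held 40.53% of its reads, mural wells had 58.56 CPM.

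The lineage wells were taken as a background for the share of wells with a read, a choice that was not tested. After each well was thinned to 50000 reads, at least 1 read was found in 11.37% of lineage wells for Lama1, 14.99% for Lama2, 9.061% for Lama4, 1.647% for Lama5, 14.0% for Lamb1, 12.03% for Lamb2 and 11.2% for Lamc3. Thinned endothelial shares of 11.11% for Lama2 (exact 95% interval 3.112 to 26.06) and 19.44% for Lama1 (8.194 to 36.02) overlap those of lineage wells. Mural shares of 11.76% for Lama1 and Lamb1 (1.458 to 36.44 each) do too. Wells are not replicates, and the overlap of their intervals is a description, not a test. It neither sets these shares apart from this background nor shows them equal to it. The same holds for Lama2 and Lama4 in mural wells, at 23.53% (6.811 to 49.9) and 29.41% (10.31 to 55.96), and for Lamc1, at 41.18% of mural wells (18.44 to 67.08) and 41.67% of endothelial wells (25.51 to 59.24) against 30.64% of lineage wells (26.99 to 34.48). Endothelial Lamb1, at 30.56% (16.35 to 48.11) against 14.0% of lineage wells (11.34 to 17.02), overlapped by a narrow margin. So did mural Lama4, against 9.061% of lineage wells (6.899 to 11.63). Trimers of the vascular classes that use these genes share this limit. In contrast 88.46% of thinned fibroblast wells (79.22 to 94.59) had a read of Lama2, and as many of Lamb1, 82.35% of mural wells (56.57 to 96.2) and 83.33% of endothelial wells (67.19 to 93.63) of Lamb2. Lineage wells differed by set, and not in 1 direction for all genes. In set 613s Lamb1 was at 6.875 CPM and Lamc3 at 7.66 CPM, against 1.411 and 0.7916 CPM in set 600s_182s and 0.8691 and 0.8947 CPM in set 1025s_182s. Lama2 was highest in 1025s_182s, at 13.93 CPM against 4.238 CPM in 613s, and Lama1 (5.128 against 1.899 CPM) and Lamb2 (5.085 against 3.501 CPM) were higher in 600s_182s than in 613s. The 6 fibroblast markers summed to 96.16 CPM in the lineage wells of set 613s, 81.86 CPM in those of 600s_182s and 16.95 CPM in those of 1025s_182s, and their part in these laminin values was not tested.

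Levels of different genes can be set side by side only per length, as RPKM, reads per kb of joined exons and per 1000000 reads. In fibroblast wells Lamc3 led at 91.36 RPKM, before Lamb1 at 67.41, Lamb2 at 65.16, Lama1 at 38.71, Lama2 at 37.43 and Lamc1 at 32.77. Within set 600s_182s Lamc3 did not lead, as Lamc1 had 1029.2 CPM over 8272 bases of exon and Lamc3 558.2 CPM over 6091. In mural wells Lamb2 led at 48.15 RPKM, before Lamc3 at 14.91 and Lama5 at 13.82. In endothelial wells Lamb2 led at 63.54 RPKM, before Lamc1 at 9.571, Lama4 at 6.71 and Lama5 at 6.537. In lineage wells Lamc1 had 5.647 RPKM and the next gene, Lamb2, 0.6403. Lamb2 was the most abundant chain gene per kb in both vascular classes. Some orders turned with the length used: over the longest coding transcript fibroblast Lama2 had 63.61 RPKM and Lama1 39.34, fibroblast Lamb1 115.6 and Lamc3 94.78, and endothelial Lama4 13.39 and Lamc1 10.39.

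**Figure D2:**
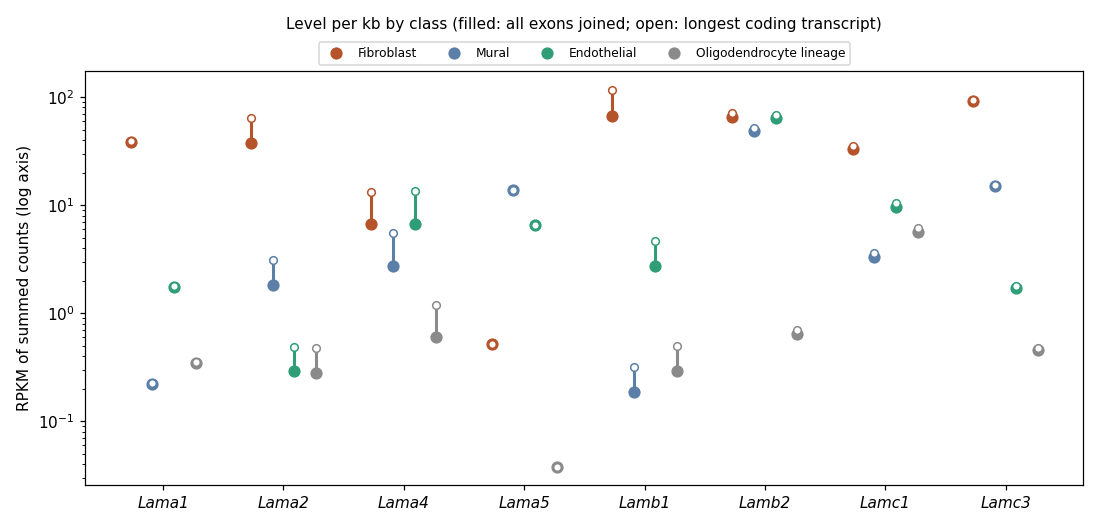
Level of each laminin chain gene per kb, as RPKM of summed counts on a log axis, for the 4 classes; filled points use the length of all exons joined and open points that of the longest coding transcript. Lamb2 stands at 65.16, 48.15 and 63.54 RPKM in fibroblast, mural and endothelial wells, far over its 0.6403 RPKM in lineage wells.

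Against the oligodendrocyte lineage, fibroblast wells were higher for 7 of the 8 genes and lower for 0, where higher means a ratio of at least 2 on CPM + 1 with at least 10 CPM in the higher class. Over all 12245 genes with such a level in either class 22.0% were higher and 26.0% lower. The log2 ratios were 7.42 for Lamb1, 7.19 for Lamc3, 6.78 for Lama2, 6.43 for Lama1, 6.34 for Lamb2, 3.29 for Lama4 and 2.51 for Lamc1, and each of these 7 was higher within all 3 sets. Lama5 was under 10 CPM in both classes. The median of the 7 genes was 6.43, against −0.10 over all genes.

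Against the lineage, endothelial wells were higher for 6 genes and lower for 0, with 23.3% of 12361 genes higher and 29.4% lower. Lamb2 stood 6.31 apart on the log2 scale and Lama5 5.72, followed by Lama4 at 3.31, Lamb1 at 2.84, Lama1 at 2.04 and Lamc3 at 1.59. Lama1 and Lamc3 fell under 10 CPM when the well with the most reads of each gene was left out, so that 4 genes were then higher. Lama1 was also under 10 CPM in both classes within sets 613s and 1025s_182s, as was Lamc3 within 613s. Lama2 was level when pooled, at 0.04 and under 10 CPM, but at −1.74 and lower within 1025s_182s. Lamc1 was at 0.75 and not counted when pooled, yet at 1.79 within set 613s and 2.14 within 1025s_182s, where it was counted as higher. Most lineage wells came from set 600s_182s, which had the highest lineage Lamc1, and 3 of the 36 endothelial wells did.

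Fibroblast wells were higher than endothelial wells for 5 genes and lower for 1, with 24.7% of 11822 genes higher and 23.3% lower. Lama2 had a log2 ratio of 6.74, Lamc3 5.60, Lamb1 4.58, Lama1 4.40 and Lamc1 1.76, and Lama5 one of −3.45. Within sets 613s and 1025s_182s these ratios kept their direction, from 6.22 and 7.08 for Lama2 to −3.95 and −2.73 for Lama5, and only that of Lamc1 in 1025s_182s, at 0.68, was too small to count. Lamb2 at 0.04 and Lama4 at −0.02 were level when pooled, and Lama4 was lower within set 613s at −1.30.

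Mural wells were higher than endothelial wells for 3 genes and lower for 4, with 17.7% of 11334 genes higher and 19.4% lower. The log2 ratios were 3.00 for Lamc3, 2.42 for Lama2 and 1.07 for Lama5, against −3.30 for Lamb1, −2.51 for Lama1, −1.49 for Lamc1 and −1.26 for Lama4. Within sets 613s and 1025s_182s Lamc3 (3.24 and 2.92), Lama2 (2.27 and 2.56), Lamb1 (−3.55 and −3.30) and Lamc1 (−2.26 and −1.12) were counted the same way, while Lama5 (0.93 and 0.94) was not counted in either set. Lama4 was lower in 1025s_182s alone (−0.52 and −3.13), and Lama1 was under 10 CPM in both classes in each set. These ratios rest on 17 wells and on the gate. Of the higher genes, Lama2 was at 0.07 with a gate of 100 CPM, Lamc3 at 0.65 with a gate of 500 CPM and 0.66 with wells of several classes kept, and Lama5 at 0.52 by the mean of well CPM, none of them then counted. At a gate of 500 CPM, with 14 mural wells, Lama1 turned to 1.16 and Lamb1 to 1.08, and with wells of several classes kept, which left 5 mural wells, Lama1 turned to 2.87, Lama4 to 0.72, Lamb1 to 0.14 and Lamc1 to 0.92.

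**Figure D3:**
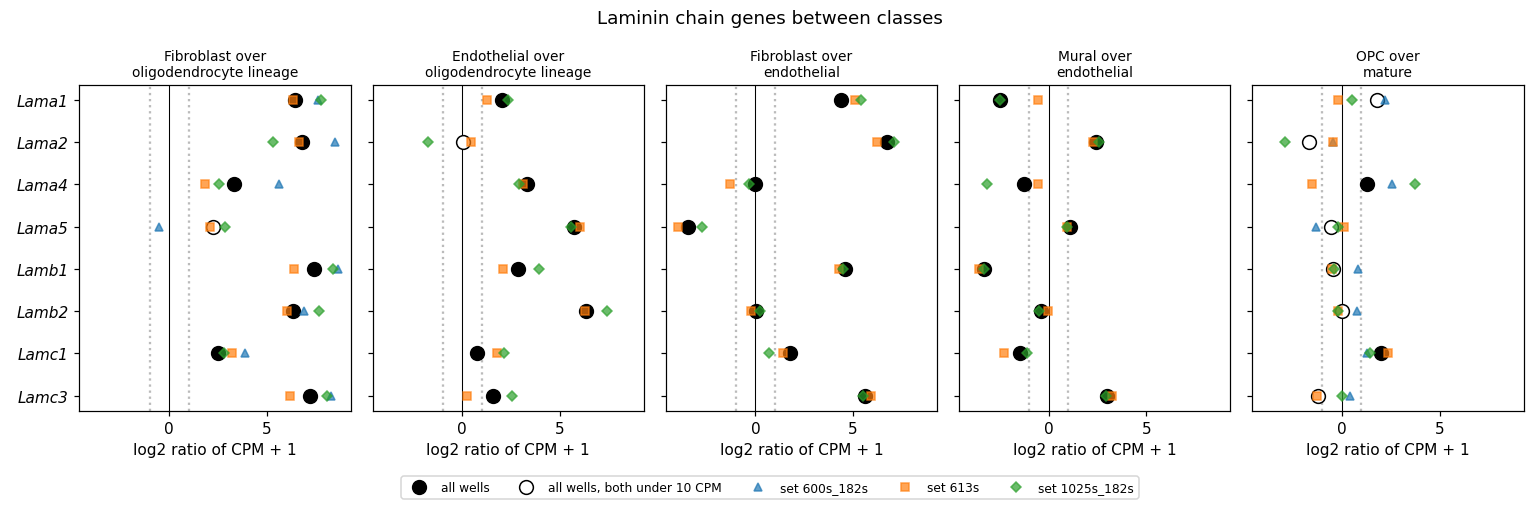
Log2 ratio of CPM + 1 for each laminin chain gene in 5 class comparisons, over all wells (circles, open where both classes are under 10 CPM) and within sets with at least 5 wells of both classes (small symbols); dotted lines mark a ratio of 2 in either direction. Lama2 stands at 6.78 and 6.74 for fibroblast wells over lineage and over endothelial wells, and Lama5 at −3.45 for fibroblast over endothelial wells.

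Which trimers each class could supply was read from 11 combinations of these 8 chains that are known from the literature. They were α1, α2, α4 or α5 with β1 or β2 and γ1, and α2β1γ3, α4β2γ3 and α5β2γ3. Trimers with a chain outside the 8 were not counted. RNA of all 3 chains is needed for a trimer but does not show that the protein was made or secreted. Over summed counts all 3 chain genes reached 10 CPM for 8 of the 11 combinations in fibroblast wells, 5 in mural wells, 8 in endothelial wells and 0 in lineage wells. Fibroblast wells lacked the combinations with α5, and mural wells had only those of α2, α4 or α5 with β2. Endothelial wells lacked the α2 combinations when summed. Of their 8, 4 were lost without set 600s_182s, or without the well with the most reads of each gene. Lama1 and Lamc3 then fell under 10 CPM. In single endothelial wells this divide was less clear. There α2β2γ1 was complete in 3 of 36 wells, α2β1γ1 in 2 and α2β1γ3 in 1. Of the 8, α5β1γ1 was complete in 3 wells, α1β2γ1 and α4β1γ1 in 2 each and α1β1γ1 in 1. Those of α4 or α5 with β2 were complete in 5 to 8 wells.

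In single wells α2β1γ3 was the combination complete most often in fibroblast wells, and α5β2γ1 in both mural and endothelial wells. All 3 chain genes of at least 1 combination reached 10 CPM in 68 of 78 fibroblast wells (87.18%, exact 95% interval 77.68 to 93.68), 10 of 17 mural wells (58.82%, 32.92 to 81.56), 13 of 36 endothelial wells (36.11%, 20.82 to 53.78) and 45 of 607 lineage wells (7.414%, 5.459 to 9.794). In fibroblast wells α2β1γ3 was complete in 50 of 78 wells and α2β1γ1 in 34. This order was not kept within set 600s_182s, where Lamc1 reached 10 CPM in 13 of 15 fibroblast wells and Lamc3 in 7. In sets 613s and 1025s_182s Lamc3 did so in 19 of 23 and 32 of 40 wells, and Lamc1 in 13 of 23 and 16 of 40. In mural wells α5β2γ1 was complete in 7 of 17 and α5β2γ3 in 5. Of these 17 wells 13 also passed the endothelial list, so the chain genes of such wells cannot be assigned to mural cells alone. In endothelial wells α5β2γ1 was complete in 8 of 36, and α4β2γ1 and α4β2γ3 in 6 each. The same well counts were 2 of 78 for α5β2γ1 in fibroblast wells, 1 of 17 for α2β1γ3 in mural wells and 1 of 36 for α2β1γ3 in endothelial wells. In lineage wells no combination was complete in more than 19 of 607. In the shallowest wells 1 read is already more than 10 CPM, so these counts depend on depth. With wells thinned to 50000 reads, α2β1γ3 was complete in 46 fibroblast wells, α5β2γ1 and α5β2γ3 in 5 mural wells each, and α5β2γ1 in 8 endothelial wells.

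**Figure D4:**
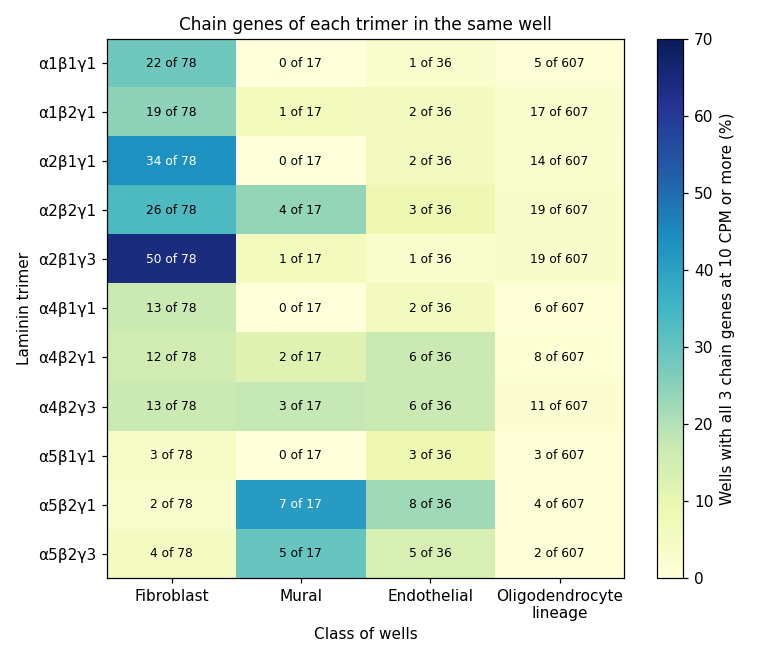
Share of wells in percent (colour) and number of wells (text) in which all 3 chain genes of a laminin trimer reached 10 CPM, for 11 trimers down the page and 4 classes of wells across. The darkest field is α2β1γ3 in fibroblast wells, at 50 of 78, followed by α2β1γ1 in fibroblast wells and α5β2γ1 in mural wells, at 34 of 78 and 7 of 17. Of the 17 mural wells 13 also passed the endothelial marker list.

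The scarcest chain gene caps what a class could assemble, and it differed between classes. For α2β1γ3 in fibroblast wells the lowest chain was Lama2 at 37.43 RPKM, and for the α1 and α2 combinations with γ1 it was Lamc1 at 32.77 RPKM. These are pooled values, and the lowest chain depended on the set. In fibroblast wells of set 600s_182s Lamc1 had 1029.2 CPM, against 973.1 for Lamb1 and 949.6 for Lama2, which have longer exons. Lamc1 was thus not the lowest chain there in combinations with Lamb1 or Lama2. For α5β2γ3 in mural wells it was Lama5 at 13.82 RPKM, and for α5β2γ1 it was Lamc1 at 3.334 RPKM. For α4β2γ1 and α5β2γ1 in endothelial wells it was the α chain, Lama4 at 6.71 and Lama5 at 6.537 RPKM. Over the longest coding transcript the lowest chain of α4β2γ1 became Lamc1, at 3.618 RPKM in mural wells and 10.39 RPKM in endothelial wells. In lineage wells the lowest chain stayed at or under 0.6015 RPKM in each combination.

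Fibroblast wells were not alike in their laminins. Their median number of chain genes at 10 CPM was 5 of the 8, from 2 to 7. Of 77 wells with an α chain gene at 10 CPM, Lama2 led per kb in 47, Lama1 in 24, Lama4 in 4 and Lama5 in 2, and over the longest coding transcript Lama2 led in 52 and Lama1 in 18. Among 76 wells with a β chain gene, Lamb1 led in 47 and Lamb2 in 29, and among 71 wells with a γ chain gene, Lamc3 led in 51 and Lamc1 in 20. Lama1 and Lama2 were both at 10 CPM or more in 30 wells, Lama2 alone in 41, Lama1 alone in 5 and neither in 2. Lama1 was the more uneven by set, at 10 CPM in 12 of 15 wells of set 600s_182s, 9 of 23 of 613s and 14 of 40 of 1025s_182s.

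**Figure D5:**
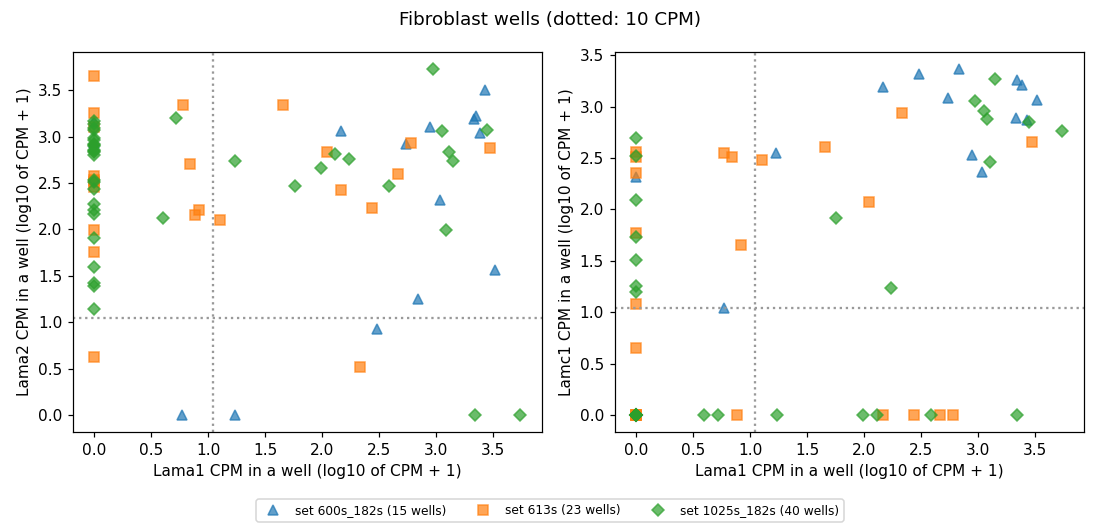
Lama1 against Lama2 (left) and against Lamc1 (right) in the 78 fibroblast wells, as log10 of CPM + 1, with symbols by set; dotted lines mark 10 CPM. Wells with Lama1 at 10 CPM mostly had Lama2 too, 30 of 35, and 26 of those 35 had Lamc1 at 10 CPM.

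Lama1 and Lamc1 had a Spearman rho of 0.57 over the 78 fibroblast wells, the highest pooled value of the pairs, but 0.44, 0.10 and 0.47 within sets 600s_182s, 613s and 1025s_182s. Within the first 2 of these sets other pairs were higher, and both genes differ in level between sets. Lamc1 reached 10 CPM in 26 of the 35 wells with Lama1 at that level and in 16 of the other 43. In the same wells Lama1 and Lama2 had a rho of 0.02, Lamb1 and Lamb2 one of −0.16, and Lamc1 and Lamc3 one of −0.18. In endothelial wells Lama5 and Lamc1 had the highest pooled value, 0.63 over 36 wells and 0.59 and 0.58 within sets 613s and 1025s_182s. Within set 613s Lamb1 and Lamc1 were higher, at 0.78. These wells share libraries and depth, and the correlations describe them only.

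Arachnoid genes (Aldh1a2, Crabp2, Slc47a1, Cldn11, Gjb2 and Gjb6, genes of the barrier layer of the meninges) split the fibroblast wells into 22 with at least 3 of them at 100 CPM and 56 others. The wells with arachnoid genes had Lama1 at 470.7 CPM (median 140.0, at 10 CPM in 14 of 22), against 321.0 CPM in the others (median 0, 21 of 56). Sets 600s_182s, 613s and 1025s_182s gave 6, 6 and 10 of the wells with arachnoid genes and 9, 17 and 30 of the others. Fibroblast Lama1 was at 1194.8, 236.7 and 308.1 CPM in these sets, and the part of the sets in this difference was not tested. Lama2 was at 524.8 CPM in the wells with arachnoid genes and 660.1 CPM in the others, with medians of 358.0 and 642.8. Lama4 was at 43.72 CPM against 100.3 CPM, with medians of 0 in both, a log2 ratio of −1.18. The other 5 genes differed by no more than 0.23 on the log2 scale. Wells of both kinds had overlapping ranges, 0 to 3301.8 CPM against 0 to 5485.0 CPM for Lama1, so the split did not separate them by laminin.

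Mural wells passed by the smooth muscle list in 9 cases and by the pericyte list alone in 8, too few to sum. Lamb2 ran from 0 to 514.0 CPM with a median of 125.2 in the wells of the smooth muscle list and from 3.366 to 725.2 with a median of 260.7 in those of the pericyte list alone. Lama5 had medians of 46.03 and 56.23 CPM, with 7 of 9 and 5 of 8 wells at 10 CPM. Lama2 had medians of 5.653 and 14.77 CPM with 3 of 9 and 6 of 8 wells, and Lamc3 medians of 2.596 and 56.7 CPM with 4 of 9 and 5 of 8 wells. The ranges overlapped for each of these genes.

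Within the oligodendrocyte lineage the laminin gene to follow was Lamc1. It had 67.41 CPM in OPC wells (65.54 to 69.32), 83.89 in COP wells (81.2 to 86.66) and 16.08 in mature wells (15.32 to 16.88), with medians of 4.574, 5.093 and 0 CPM and highest wells of 1309.0, 1123.4 and 407.7 CPM. It reached 10 CPM in 84 of 236 OPC wells, 38 of 90 COP wells and 55 of 281 mature wells, so at each stage a minority of wells held most of its RNA. Within sets 600s_182s, 613s and 1025s_182s OPC wells had 74.37, 53.82 and 38.21 CPM and mature wells 29.95, 9.525 and 13.43 CPM. COP wells had 86.36 and 82.97 CPM in sets 600s_182s and 613s.

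OPC wells were higher than mature wells for 2 of the 8 genes and lower for 0, with 29.8% of 11534 genes higher, 11.3% lower and a median log2 ratio of 0.37 over all of them. Lamc1 had a log2 ratio of 2.00, and 1.28, 2.38 and 1.44 within the 3 sets. Lama4, at 10.74 CPM in OPC wells and 3.762 CPM in mature wells, had one of 1.30, with 2.55, −1.50 and 3.75 within the sets, and it was not counted without its top well, which held 32.99% of the OPC reads. The other 6 genes were under 10 CPM in both when pooled, although Lama2 was lower in OPC wells within set 1025s_182s, at 1.409 CPM in OPC and 17.22 CPM in mature wells. COP wells had 10.71 CPM of Lamb2, of which 56.75% came from 1 well, and 4.646 CPM without it. In that well the fibroblast markers summed to 14337.2 CPM, the highest of the lineage, and their part in its Lamb2 was not tested. Any complete combination was found in 11 of 236 OPC wells, 4 of 90 COP wells and 30 of 281 mature wells.

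Other genes of laminin assembly and binding differed in which class held them. Of 9 receptor genes, 4 were higher and 1 lower in fibroblast than in lineage wells, 6 higher and 2 lower in endothelial than in lineage wells, and 1 higher and 4 lower in fibroblast than in endothelial wells, where 22.0% and 26.0%, 23.3% and 29.4%, and 24.7% and 23.3% of all genes were higher and lower. Itga6, the α subunit of laminin-binding integrins, had 12.0 CPM in fibroblast wells, 245.1 in mural wells, 327.9 in endothelial wells and 2.598 in lineage wells, and 1 well held 76.0% of the fibroblast reads, so that without it fibroblast wells had 2.901 CPM, under the minimum for a count. Bcam, a receptor for the α5 chain, had 89.23, 831.2, 606.0 and 21.19 CPM in the same order of classes. Itga7, an integrin subunit of muscle cells, was the receptor gene counted as higher in mural than in endothelial wells, at 119.3 and 19.83 CPM, although 1 well held 78.97% of the endothelial reads. Dag1, which codes for dystroglycan, had 355.6 CPM in fibroblast wells, 106.9 in endothelial wells and 229.5 in lineage wells, a log2 ratio of 1.73 for fibroblast over endothelial wells. Itgb4, the partner of α6 in hemidesmosomes, was a lineage gene, at 1.921 CPM in fibroblast wells and 89.77 in lineage wells, and at 6.923 CPM in OPC wells and 182.2 in mature wells.

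Matrix partners of laminin followed the fibroblast pattern in part. Of 5 such genes, 3 were higher and 1 lower in fibroblast wells, against both lineage wells (22.0% and 26.0% of all genes) and endothelial wells (24.7% and 23.3%). Nid1, a nidogen that links laminin to collagen IV, had 720.2 CPM in fibroblast wells, 63.26 in mural wells, 25.58 in endothelial wells and 5.255 in lineage wells. Nid2 had 204.0, 50.89, 27.15 and 6.67 CPM, and Hspg2, the gene of perlecan, 292.8, 99.93, 51.63 and 12.9 CPM in the same order. The log2 ratio of Nid2 for fibroblast over endothelial wells was 2.86 when pooled, but 0.33 and not counted within set 613s. Without the well with most of its reads, Nid2 was at 21.78 CPM in mural, 14.16 in endothelial and 2.063 in lineage wells. Agrn, the gene of agrin, which binds laminin to dystroglycan, was the exception, at 31.25 CPM in fibroblast wells, 150.0 in mural wells, 197.5 in endothelial wells and 106.0 in lineage wells, of which OPC wells had 197.4 and mature wells 34.54.

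Of the laminin chain genes outside the 8, Lamb3 was under 1 CPM in each class. Lama3 had 0.08002 CPM in fibroblast wells, 31.98 in mural wells, 47.69 in endothelial wells and 0.05935 in lineage wells, with reads in 5 of 17 mural and 10 of 36 endothelial wells. A single well held 73.78% of the mural Lama3 reads and another 40.92% of the endothelial ones, and without them the levels were 9.093 and 29.8 CPM. Trimers with the Lama3 chain were not among the combinations counted above.

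Genes whose pattern was most like that of a laminin gene were ranked by Pearson's r of log2(CPM + 1) over 15 units, each the wells of a class or lineage stage in a set, among 15595 genes. These units share libraries and sets, so r is a description. Lamc3 was most like Serping1 (0.993), an inhibitor of complement C1, Aoc3 (0.985) and Zic1 (0.978), a transcription factor of the meninges. Lama2 was most like Itih2 (0.952), Aoc3 (0.949) and Cyp1b1 (0.947). Lamb1 was most like Gpr182 (0.978), Cped1 (0.974) and Inmt (0.973). Lamb2 was most like Foxf2 (0.989), a transcription factor gene of brain pericytes, S100a11 (0.985) and Tgfbr2 (0.984). Lama1 was most like Ror2 and D930030I03Rik (0.982 each). For Lama5 the first genes were Atf3 (0.982), Slc19a3 (0.976), a thiamine transporter, and Tbx3 (0.974). Lamc1 and Lama4 had no gene as close, with Axin2 first at 0.891 for Lamc1 and Myadm first at 0.838 for Lama4.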

How the data were processed

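Single cells of adult mouse brain were measured by SMART-seq2. The authors deposited raw read counts of 46517 genes in 1152 wells. Per the submitters' processing notes featureCounts from Subread 1.4.6-p5, TopHat2 2.1.1 and SAMtools 0.1.18 were used, with builds GRCm38 and mm10. Annotation and strand setting are not stated in any source used here. The deposited counts carry no molecular identifiers, so intervals cover counting error only.

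The 857 wells with at least 50000 reads were used (50002 to 1451280 reads, median 279874), and 295 were left out. No 2 wells had identical counts. Classes were set by marker lists (at least 3 of 6 genes at 200 CPM). Counts were summed per class and given as CPM with exact Poisson intervals, and shares of wells with exact Clopper-Pearson intervals. Class ratios used a pseudocount of 1 CPM. All wells are 1 sample, so no test was made. Shares of wells with a read used wells thinned to 50000 reads. RPKM used exon lengths of GENCODE vM21, to which 42052 genes (90.4%) matched by name. Doublets were treated only by leaving out wells that passed several classes. The genes named beside the 8 members come from lists of 23 genes, and from the 3 most alike genes per member. Results for some of the list genes are not reported here. The members and lists were chosen with earlier results of these data known. Alternatives were gates of 100 and 500 CPM, other well filters, denominators, weights, pseudocounts and lengths, and each set left out. The computing steps were checked on simulated data. Work was done in Python 3.11.15 with pandas 2.3.3, NumPy 2.4.6, SciPy 1.17.1 and Matplotlib 3.10.9.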

Additional observations from a re-analysis of the deposited data

Results flagged for a closer look

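Laminin RNA was also found in wells outside the class comparisons, each time over the level that 3 reads would give. The 43 wells that passed marker lists of several classes had 1609.8 CPM of the 8 genes summed (1586.5 to 1633.4), where 3 reads are 0.2656 CPM, with Lama2 highest at 314.7 CPM and Lama5 lowest at 55.52 CPM. The 76 wells that passed no list had 389.6 CPM (378.2 to 401.2), where 3 reads are 0.2633 CPM, with Lamb2 highest at 122.4 CPM and Lama1 lowest at 7.46 CPM. The 295 wells under 50000 reads had 614.3 CPM (596.6 to 632.4), where 3 reads are 0.4038 CPM, with Lamb2 highest at 134.9 CPM and Lama5 lowest at 5.519 CPM. Highest and lowest here are by CPM, not per length, so they do not rank the genes by abundance.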

How the results depend on the processing

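Of the class counts under the alternatives, 208 stayed within 1.5 times the reported count and 16 did not. Of the values of single genes and trimers, 1318 stayed, 548 moved and 6 changed sign. A ratio stayed if it was counted the same way, and a trimer RPKM if it lay in the Poisson interval of the reported value. Some values could not move, so these tallies do not measure robustness. Pseudocount and minimum CPM do not enter trimer RPKM, and all 77 were the same under each. Transcript length enters neither the 40 ratios nor the 14 counts, which were all the same. The cause of the moved values was not tested. The mural comparison depended most on the gate. At 500 CPM (14 mural, 47 endothelial wells) 0 genes were lower in mural than in endothelial wells, with Lama1 at 1.16 and Lamb1 at 1.08 on the log2 scale. With wells of several classes kept (5 mural, 66 endothelial wells) 1 gene was lower, with Lama1 at 2.87, Lama4 at 0.72, Lamb1 at 0.14 and Lamc1 at 0.92. Mural trimers with all chains numbered 11 under both of these and at a minimum of 1 CPM, and 3 without set 613s. Endothelial trimers numbered 4 without set 600s_182s and 4 without each gene's top well, and lineage trimers 8 at a minimum of 1 CPM. Genes higher in OPC than in mature wells numbered 1 at a gate of 100 CPM, by the mean of well CPM, without set 1025s_182s and without each gene's top well. Genes lower there numbered 3 by the mean of well CPM, 2 at a minimum of 1 CPM and 1 without set 613s. The alternatives on top wells, coding length, endothelial-positive mural wells, and astrocyte, neuron or choroid plexus wells were chosen after seeing the data. No paired analysis was possible because the labels give no replicates and no test was made. The 17 mural and 36 endothelial wells limit precision in those classes.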
